A study of Mus musculus with 12 samples.

Results

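The effect of diet was measured in CD11b+CD34+ white blood cells of the mouse mammary gland, in 3 samples from mice on a low-fat diet and 3 from mice on a high-fat diet, which are 6 of the 12 samples of the series. The samples were chosen by their titles, which give the diet, the sorted population and a replicate number. All mice were female and of the FVB/N strain. They were assigned at random, when 3 weeks old, to a low-fat diet (Teklad Global) or a high-fat diet (Test Diet), and their glands were taken 16 weeks later. Collagenase for 1 hour, followed by trypsin, freed the cells from the glands. Live cells that carried CD45, the surface protein of white blood cells, were sorted by CD11b, an integrin of myeloid cells, and by CD34, a surface protein of blood progenitors, endothelium and some stromal cells. The submitters name the CD11b+CD34+ cells myeloid progenitors. The other 6 samples, from CD11b+CD34- cells of the same 2 diets, entered the model to estimate the spread and are cited only beside the CD34+ values. The sources used here do not give how many mice a sample came from, so the p-values measure the spread between these samples.

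A low-input kit amplified the RNA, which was then measured with the NanoString nCounter mouse Fibrosis V2 panel, in which barcoded probes count target RNAs of inflammation, matrix and metabolism. Values are the authors' normalized log2 values, in which a difference of 1 is a doubling. Of 760 genes, 594 reached a linear value of 20 in 3 or more of the 12 samples and were tested. The mammary gland lies in a fat pad. In obesity, fat tissue is known to gather macrophages that surround dying fat cells, take up their lipid and release cytokines and chemokines. Toll-like receptors and their partner CD14 sense microbial and tissue-derived ligands and switch on the transcription factor NF-kB, which drives genes of cytokines and of chemokines that draw neutrophils and monocytes.

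The label of the sort was checked first. Cd34 had log2 values of 5.84, 4.96 and 5.78 in low-fat replicates 1, 2 and 3 and of 5.29, 6.44 and 5.11 in high-fat replicates 1, 2 and 3 of CD34+ cells. The diets overlapped, with a difference of 0.08 ± 0.49 (SE, n = 3 per group), and the sign turned without replicate 2 of either diet. In CD34- cells Cd34 was at 2.85 to 4.41 on the low-fat diet and at 5.14 to 5.40 on the high-fat diet, so the high-fat CD34+ and CD34- samples overlapped in the gene of the sort marker. Ptprc, the gene of CD45, lay between 10.75 and 11.13 in all 6 CD34+ samples. Only 1 of 9 listed genes of blood progenitors, Cd34 itself, was on the panel, and the CD11b gene Itgam was not used here. The label progenitor therefore could not be checked further. Listed genes of macrophages and dendritic cells were high in every sample. In linear units the sum of 5 macrophage genes was 2940 to 11400 and that of 3 dendritic cell genes 9080 to 16500. Only these 3 of 10 listed dendritic cell genes, Ccr7, Irf8 and H2-Ab1, were on the panel. The MHC class II gene H2-Ab1 was the highest of them in every sample.

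Total counts were 313528, 157361 and 406892 in low-fat replicates 1, 2 and 3. They were 400322, 532744 and 780070 in high-fat replicates 1, 2 and 3. Depth was thus mostly lower on the low-fat diet, and only low-fat replicate 3 exceeded a high-fat sample. Some libraries stood apart in genes of other cell types. High-fat replicate 2 had a sum of 5360 over 7 fibroblast genes, against 306 to 774 in the other 5 samples, and 995 counts of Col1a1 against 49 and 56 in the other high-fat samples. Low-fat replicate 3 had a sum of 1430 over 5 mast cell genes, against 43.7 to 150 in the other 5 samples, with 801 counts of Cpa3 and 854 of Tpsb2. Of 8 epithelial genes listed, 0 were on the panel. In sorted bulk samples, a change in the share of a cell type and a change of RNA per cell cannot be told apart, which touches every result below.

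**Figure D1:**
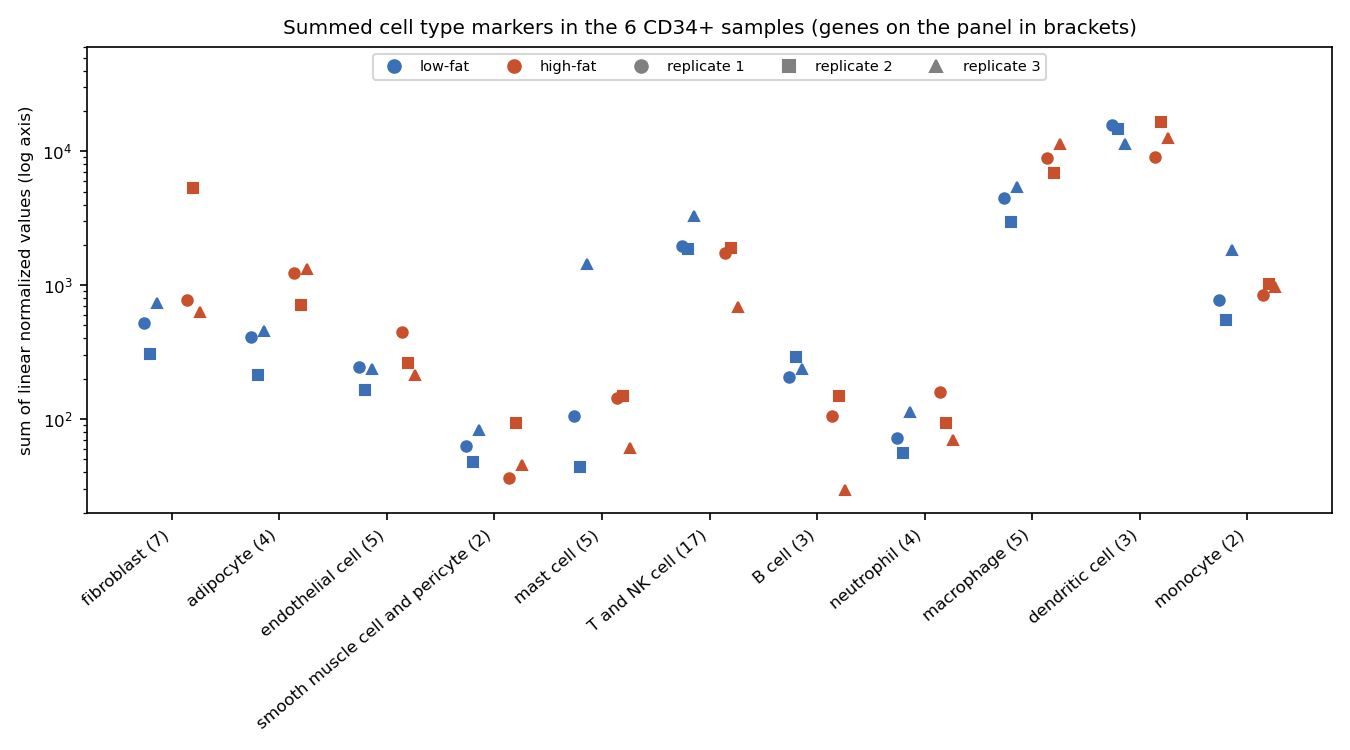
Sums of linear normalized values over the marker genes of each cell type (log axis), for the 3 low-fat (blue) and 3 high-fat (red) CD34+ samples, with 1 symbol per replicate number. High-fat replicate 2 stood above the other samples in fibroblast genes and low-fat replicate 3 in mast cell genes. The macrophage sum was 2940 to 5400 on the low-fat and 6880 to 11400 on the high-fat diet. It includes Cd14, which is among the genes called for diet below.

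On the high-fat diet, CD34+ cells had more RNA of the cytokines Il6 and Il10, the neutrophil-attracting chemokines Cxcl1 and Cxcl2, the endotoxin co-receptor Cd14, the lipid carrier Fabp4, the heme-degrading enzyme Hmox1, the protease inhibitor Timp1, the basement membrane collagen Col4a2 and the interferon-induced gene Oasl1. They had less RNA of the cytokine receptor Il21r, the chemokine receptor Ccr7 and the transcription factor Irf1. These were among 14 genes, 2.36% of those tested, with an adjusted p under 0.05 (limma, two-sided, Benjamini-Hochberg over 594 genes): 10 were higher (1.68%) and 4 lower (0.673%). In each of the 14 the 3 high-fat samples lay wholly above or wholly below the 3 low-fat samples. Over all tested genes, the high-fat samples lay wholly above in 50 (8.42%) and wholly below in 68 (11.4%), and the median difference was -0.01.

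The number of genes that passed rested on single samples. It was 0 without low-fat replicate 1, low-fat replicate 2, high-fat replicate 1 or high-fat replicate 3, with 68 to 93 genes at an unadjusted p under 0.05 in those fits. It was also 0 without high-fat replicate 1 of CD34- cells, which only serves to estimate the spread (94 genes unadjusted), and in a fit of the 6 CD34+ samples alone (92), against 104 in the full model (17.5%). Without high-fat replicate 2 it was 29, and without replicate 3 of the low-fat CD34- cells it was 24. Re-centring every sample on its median moved the share of higher genes from 71.4% to 92.3% of the calls, and 8 of the 14 genes still passed. Of the 4 that fell, only Il21r was among these 8. Quantile normalization kept 4 of the 14 genes, of which Il21r and Ccr7 were the ones that fell. The sign of all 14 differences held under each alternative run, whereas the call held in 10 to 18 of them, depending on the gene.

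**Figure D2:**
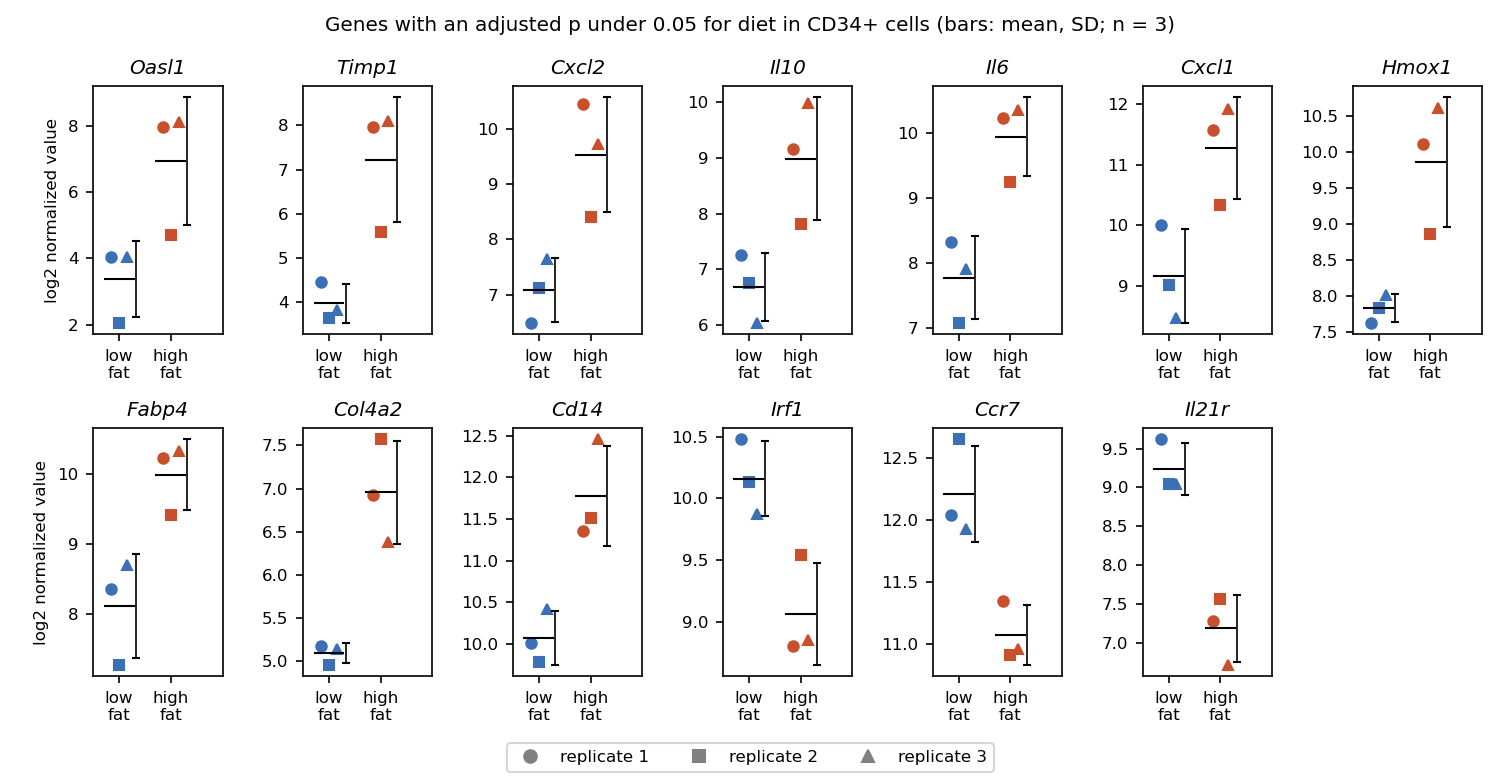
Log2 normalized values of 13 of the genes that passed, in 3 low-fat (blue) and 3 high-fat (red) CD34+ samples. Symbols mark the replicate number, lines the group mean and bars the SD (n = 3), and each panel has its own vertical scale. The diets do not overlap in any of the 13 genes, and high-fat replicate 2 (square) is the lowest of its group in 8 of the 10 genes that rose.

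The first principal component of the 6 samples held 37% of the variance and put the low-fat samples at -8.3, -9.6 and -7.3 and the high-fat samples at 9.2, 1.7 and 14.3. High-fat replicate 2 thus lay nearest the low-fat samples. Among the 10 genes that rose it was the lowest of its group in 8, whereas high-fat replicate 3 was the highest in 8. Differences of at least 1 in size were seen in 81 genes, 51 higher and 30 lower, and the quartiles of all differences were -0.39 and 0.41. The median SD within a group was 0.41 on the low-fat and 0.4 on the high-fat diet.

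Of the 10 genes that rose, 4 encode cytokines or chemokines. Il6 encodes interleukin 6, a cytokine of inflammation and of the acute phase. Its log2 values were 8.33, 7.08 and 7.91 in low-fat replicates 1, 2 and 3 and 10.24, 9.25 and 10.35 in the high-fat replicates. Every high-fat sample lay above every low-fat sample, with high-fat replicate 2 nearest to them. The difference was 2.17 ± 0.42 (SE, n = 3 per group, adjusted p = 0.0281), a 4.51-fold rise.

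Il10, the gene of a cytokine that restrains macrophages and dendritic cells, rose beside it. It was at 7.25, 6.76 and 6.04 on the low-fat and at 9.17, 7.81 and 9.99 on the high-fat diet. The groups were apart, the closest samples being low-fat replicate 1 and high-fat replicate 2. The rise was 2.31 ± 0.49 (adjusted p = 0.0345), or 4.95-fold.

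The chemokines Cxcl1 and Cxcl2 bind CXCR2 and draw neutrophils. Cxcl1 was at 10, 9.02 and 8.48 on the low-fat diet and at 11.58, 10.33 and 11.92 on the high-fat diet. Cxcl2 was at 6.49, 7.12 and 7.65 in the low-fat samples and at 10.45, 8.40 and 9.73 in the high-fat samples. The gap between the diets was narrow for Cxcl1, between low-fat replicate 1 and high-fat replicate 2, and wider for Cxcl2. Cxcl1 rose by 2.11 ± 0.49, or 4.32-fold, and Cxcl2 by 2.44 ± 0.56, or 5.42-fold (adjusted p = 0.0409 for each).

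Of 7 tested inflammatory cytokine genes, 2 passed, both higher. Their differences were positive in 6 and negative in 1 (-0.17), and the median was 1.18, against -0.01 over all genes. Il1b, the gene of interleukin 1 beta, was at 12.68, 12.64 and 11.94 on the low-fat and at 14.22, 12.65 and 13.94 on the high-fat diet. High-fat replicate 2 lay among the low-fat samples, and the difference of 1.18 ± 0.43 did not pass (adjusted p = 0.168). Without that sample Il1b passed. Il33, the gene of an alarm signal of tissue cells, had groups apart at 3.86 to 4.23 against 5.12 to 6.07 (1.5 ± 0.61, adjusted p = 0.218). Tnf, the gene of tumour necrosis factor, differed by 0.74 ± 0.34 (adjusted p = 0.285), with 9.05 to 9.35 against 9.15 to 10.57.

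Of 10 chemokine ligand genes, 2 passed, both higher, and the median was 0.99. Ccl4, the gene of a chemokine that macrophages secrete, was at 9.49, 8.99 and 8.86 against 11.46, 9.11 and 12.02. High-fat replicate 2 again lay among the low-fat samples, and the other high-fat samples lay above all of them (1.75 ± 0.58, adjusted p = 0.138). Cxcl10, the gene of a chemokine for T cells, was at 8.20 to 9.19 against 10.48, 8.79 and 10.73 (1.31 ± 0.47, adjusted p = 0.168). Ccl2, the gene of the main ligand of the monocyte receptor CCR2, had a difference of 1.10 ± 0.75 (adjusted p = 0.481). Cxcl16 went the other way with groups apart, at 9.79 to 10.52 on the low-fat and 9.55 to 9.72 on the high-fat diet (-0.55 ± 0.30, adjusted p = 0.37). The macrophage sum was 2940 to 5400 on the low-fat and 6880 to 11400 on the high-fat diet, with high-fat replicate 2 lowest of its group. It includes Cd14, which itself passed for diet, so it is not a measure apart from the calls. Of its other members, Csf1r was apart and higher, Cd68 and Cd163 overlapped, and Marco was lower on the high-fat diet. The part of macrophage RNA in the cytokine differences was not tested.

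The Toll-like receptor and NF-kB list held 15 tested genes, of which 1 passed, with a median of -0.10. That gene was Cd14, which encodes the co-receptor that hands endotoxin to TLR4. Cd14 values were 10.01, 9.78 and 10.42 on the low-fat diet and 11.36, 11.51 and 12.46 on the high-fat diet. The groups were well apart, and here high-fat replicate 2 was not the lowest. The rise of 1.70 ± 0.39 was 3.26-fold (adjusted p = 0.0409).

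Other members had differences of both signs and did not pass. Nfkb1, the gene of the p105 and p50 subunit, was at 9.01 to 9.83 against 9.88 to 10.41 (0.81 ± 0.25, adjusted p = 0.108). Myd88, the adaptor of most Toll-like receptors, was at 7.10, 7.66 and 8.24 against 9.62, 8.24 and 8.54 (1.14 ± 0.38, adjusted p = 0.138). Its groups were apart, but by less than the last digit shown. Ikbkb, the gene of the kinase that marks the inhibitor of NF-kB for destruction, was at 8.71, 8.50 and 8.14 against 7.61, 7.85 and 7.45. Its high-fat samples lay below all low-fat ones (-0.82 ± 0.24, adjusted p = 0.106). Birc3, an inhibitor of cell death and itself a target of NF-kB, was also apart and lower, at 9.82 to 10.03 against 8.92 to 9.43 (-0.82 ± 0.24, adjusted p = 0.101). Of the 15 genes, 3 had an unadjusted p under 0.05 and were higher and 3 were lower, against 57 and 47 of all 594 genes.

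Interferon genes split as well. Oasl1 belongs to the 2′-5′-oligoadenylate synthetase-like genes, which interferons induce. It rose from 4.03, 2.06 and 4.04 to 7.95, 4.70 and 8.12, which were 14, 2 and 21 counts against 247, 39 and 549. No low-fat sample reached a high-fat one, but the low counts leave the size of the rise uncertain (3.55 ± 0.84, adjusted p = 0.0412). Irf1, a transcription factor that interferon gamma induces, fell. Its values were 10.48, 10.13 and 9.87 on the low-fat and 8.80, 9.54 and 8.85 on the high-fat diet, so that high-fat replicate 2 lay nearest the low-fat range. The fall was -1.09 ± 0.26 (adjusted p = 0.0412), to a level 2.13-fold lower. Irf1 did not pass with re-centred samples (limma adjusted p = 0.076) or with quantile normalization (0.0614).

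Over 10 tested interferon genes the median was -0.37, with 1 passed higher and 1 lower. At an unadjusted p under 0.05, 3 were higher and 4 lower, against 57 and 47 of all 594 genes. Isg15, which encodes a ubiquitin-like protein, was at 8.65 to 9.01 on the low-fat diet and at 11.16, 8.48 and 11.44 in high-fat replicates 1, 2 and 3. Replicate 2 alone stayed at the low-fat level, and the difference of 1.55 ± 0.57 did not pass (adjusted p = 0.172). Bst2, the gene of tetherin, was at 9.04 to 9.39 against 8.48 to 8.81 (-0.48 ± 0.20, adjusted p = 0.218).

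Receptors of cytokines and chemokines made up part of what fell. Il21r encodes the receptor of interleukin 21, a cytokine of helper T cells. It was at 9.62, 9.05 and 9.04 in low-fat replicates 1, 2 and 3 and at 7.28, 7.57 and 6.72 in high-fat replicates. The nearest samples of the diets were more than 1 log2 unit apart. The fall of -2.05 ± 0.37 (adjusted p = 0.0281) was the largest of the 594 genes and left 4.13-fold less RNA. Among 13 tested genes of cytokine receptors and JAK-STAT signalling, Il21r was the 1 that passed, and the median was -0.19. Il18r1, the receptor gene of interleukin 18, had groups apart at 5.30 to 5.98 against 4.57 to 5.25 (-0.79 ± 0.45, adjusted p = 0.387).

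Ccr7 guides dendritic cells and lymphocytes to lymph nodes. Its values were 12.04, 12.65 and 11.93 on the low-fat and 11.35, 10.91 and 10.96 on the high-fat diet. All high-fat samples lay below all low-fat ones, with a difference of -1.13 ± 0.22 (adjusted p = 0.0281), 2.2-fold. Ccr7 passed with quantile normalization (limma adjusted p = 0.0131) but not with re-centred samples (0.076). Of 7 chemokine receptor genes 1 passed, with a median of -0.73. In 3 the groups were apart below and in 0 above, against 11.4% and 8.42% of all tested genes. Cxcr4, the receptor of the bone marrow chemokine CXCL12, was at 10.55 to 10.89 against 9.62 to 10.33 (-0.78 ± 0.28, adjusted p = 0.167). Ccr1, a receptor of myeloid cells, had a positive difference of 0.60 ± 0.36 (adjusted p = 0.411), with overlap.

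The authors' deposited table for this comparison lists 7 genes, all lower on the high-fat diet. These include the 4 that fell here, and Cat and Rnf152 are also in the authors' deposited table. In the model, Cat, the gene of catalase, had a difference of -0.85 ± 0.24 (adjusted p = 0.0808) with groups apart at 8.94 to 9.05 against 7.76 to 8.44. Samples of 1 diet with the same number resembled each other across the populations, so a fit with diet and number as a random block was also made. Rnf152, the gene of a lysosomal ubiquitin ligase, did not pass (-0.80 ± 0.36, adjusted p = 0.276).

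No listed T, NK or B cell gene passed, and the T and NK cell list had differences of both signs. Of 16 tested T and NK cell genes 0 passed, 11 had negative and 5 positive differences, and the median was -0.37. Lower values with an unadjusted p under 0.05 were seen in 6, and 5 had high-fat samples wholly below, against 47 and 68 of all 594 genes. The T cell genes of CD3, CD4 and CD8 in the list were all lower, with differences from -1.71 to -1.35. Gzmb, the gene of granzyme B of killer and NK cells, had the highest difference of the list. It was at 4.55, 3.06 and 6.42 against 6.55, 7.11 and 4.02 with overlap (1.22 ± 0.90, adjusted p = 0.533). Cd8a, the co-receptor of killer T cells, was at 8.60, 8.82 and 8.95 against 7.46, 8.39 and 5.88 (-1.55 ± 0.49, adjusted p = 0.123). High-fat replicate 3 was far below the rest. Cd3d, a chain of the T cell receptor complex, was at 7.61, 7.43 and 8.89 against 6.33, 7.39 and 5.76 (-1.49 ± 0.51, adjusted p = 0.15). All 3 B cell genes had negative differences, from -1.96 to -0.71. Among them Ms4a1, the gene of CD20, was at 6.43, 7.50 and 7.26 against 5.01, 6.35 and 3.97 (-1.96 ± 0.66, adjusted p = 0.142).

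The sum of 17 T and NK cell genes was 1970, 1860 and 3280 on the low-fat and 1740, 1890 and 684 on the high-fat diet, and that of the 3 B cell genes was 205, 289 and 236 against 106, 150 and 29.4. High-fat replicate 3 was the lowest in both, and only the B cell sum separated the diets. In the 6 CD34- samples the T and NK sum was 4520 to 20400. Lymphocytes are known to express Il21r, Ccr7 and Irf1 too, and the part of lymphocyte RNA in their fall was not tested.

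Of 8 MHC class II genes 0 passed and 1 was apart below, against 11.4% of all tested genes. The median was 0.14 and turned to -0.19 under quantile normalization. H2-Eb1, a chain of the I-E molecule, was the most counted gene in every sample, at 14.88 to 15.50 against 15.34 to 15.99 (0.34 ± 0.33, adjusted p = 0.64). Of 5 genes of MHC class I and its processing 0 passed, and the median was -0.50. Lower values with an unadjusted p under 0.05 were seen in 3, against 47 of all 594 genes. H2-T23, a non-classical class I gene, was at 10.16 to 10.37 against 9.53 to 9.90 (-0.56 ± 0.18, adjusted p = 0.138). H2-M3, another, was at 8.16 to 8.62 against 7.51 to 7.90 (-0.60 ± 0.24, adjusted p = 0.201).

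Matrix genes were higher on the high-fat diet in most cases, and few passed. Timp1 encodes a secreted inhibitor of matrix metalloproteases. It was at 4.47, 3.64 and 3.82 on the low-fat and 7.97, 5.59 and 8.10 on the high-fat diet, from 19, 6 and 18 against 249, 72 and 540 counts. High-fat replicate 2, the sample with the most fibroblast RNA, was the lowest high-fat sample of Timp1. The rise was 3.24 ± 0.66 (adjusted p = 0.0345), 9.43-fold on counts that were low in the low-fat samples. Of 12 genes of metalloproteases and their inhibitors Timp1 was the 1 that passed, and the median was 0.45. Mmp14, a membrane-bound collagenase, had groups apart at 6.23 to 6.91 against 7.23 to 7.29 (0.78 ± 0.40, adjusted p = 0.334).

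Col4a2 encodes a chain of collagen IV of basement membranes. Its values were 5.18, 4.96 and 5.14 against 6.92, 7.57 and 6.38, with the low-fat samples close together and high-fat replicate 2 highest (1.86 ± 0.40, adjusted p = 0.0345, 3.63-fold). It was the 1 gene of 7 collagens and of 6 basement membrane genes that passed. The collagen median was 1.46, and it was 0.60, with 0 passed, without high-fat replicate 2. Col3a1, a fibrillar collagen, was at 7.08 to 8.28 against 8.29, 10.88 and 8.49 (1.60 ± 0.58, adjusted p = 0.168). Col1a1 was at 4.64 to 5.86 against 5.62, 9.38 and 4.83 (1.34 ± 0.89, adjusted p = 0.467). Both were highest in high-fat replicate 2, by far, and the other high-fat samples lay inside the low-fat range or just above it.

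Of 8 tested genes of matrix glycoproteins and crosslinking 0 passed. Higher values at an unadjusted p under 0.05 were seen in 6 and groups apart above in 5, against 57 and 50 of all 594 genes. The median was 1.47, and 1.08 without high-fat replicate 2. Fn1, the gene of fibronectin, was at 9.65, 9.78 and 12.05 against 12.42, 12.45 and 12.70. Low-fat replicates 1 and 2 were far below the high-fat samples and replicate 3 was close to them (2.03 ± 0.54, adjusted p = 0.0652), and Fn1 passed with the block (adjusted p = 0.03). Thbs1, the gene of thrombospondin 1, was at 8.77 to 10.27 against 10.59 to 11.02 (1.15 ± 0.37, adjusted p = 0.123). Lox, a collagen crosslinking enzyme, was at 2.64 to 3.65 against 5.18, 7.15 and 4.60 (2.36 ± 0.72, adjusted p = 0.108). The fibroblast sums, which stood apart in high-fat replicate 2, were 519, 306 and 732 on the low-fat and 774, 5360 and 631 on the high-fat diet, and their part in these differences was not tested.

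Some related genes came near the threshold. Itga5, the fibronectin receptor chain alpha 5, had the smallest p of those that did not pass, at 1.43 ± 0.35 (adjusted p = 0.0516, 0.0278 with the block). Furin, a protease that matures secreted precursors, was at 1.15 ± 0.29 (adjusted p = 0.0538, 0.0391 with the block). Lrp1, a receptor that clears lipoproteins and protease complexes, was at 1.21 ± 0.32 (adjusted p = 0.0652), and Apoc2, the activator of lipoprotein lipase, at 1.47 ± 0.41 (adjusted p = 0.0735). In each of these 4 genes the high-fat samples lay above all low-fat samples. Tgfb1, the gene of transforming growth factor beta 1, was at 9.82 to 10.57 against 10.85 to 11.48, apart (0.84 ± 0.23, adjusted p = 0.0735). The 9 genes of the TGF-beta pathway had a median of -0.15 with 0 passed. Below 0, others near the threshold included Nrp2 (-0.78 ± 0.23), Sirt1 (-0.91 ± 0.28) and Bcl2l1, an inhibitor of apoptosis (-1.10 ± 0.35), with adjusted p of 0.108, 0.108 and 0.123.

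Lipid handling was the other group with several higher genes. Fabp4 encodes the fatty acid binding protein of fat cells and macrophages. It was at 8.35, 7.27 and 8.70 on the low-fat and 10.23, 9.41 and 10.34 on the high-fat diet, with low-fat replicate 2 and high-fat replicate 2 the lowest of their groups. The groups were apart and the rise was 1.89 ± 0.43 (adjusted p = 0.0409), 3.70-fold. Adipoq, which encodes the fat cell hormone adiponectin, went the other way, at 5.81, 5.30 and 4.18 against 3.71, 4.37 and 3.93 (-1.10 ± 0.64, adjusted p = 0.392), which were 13 to 31 counts on the high-fat diet. Lep, the gene of leptin, had 1 to 8 counts in the 6 samples.

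Of 8 tested genes of fatty acid uptake 1 passed, with a median of 1.26. At an unadjusted p under 0.05, 5 were higher and 0 lower, against 57 and 47 of all 594 genes. Pparg, the nuclear receptor that controls Fabp4, was at 5.35, 4.76 and 6.42 against 7.14, 7.02 and 7.32. Its groups were apart (1.65 ± 0.41, adjusted p = 0.053), and it passed with the block (adjusted p = 0.0358). Cd36, a fatty acid and lipoprotein receptor, was at 7.33, 8.12 and 9.06 against 10.06, 9.0 and 10.55 (1.70 ± 0.45, adjusted p = 0.0646). Lpl, the lipase of lipoproteins, was at 5.78, 6.55 and 8.31 against 8.65, 8.22 and 9.42 (1.89 ± 0.53, adjusted p = 0.0808). In both genes low-fat replicate 3 just exceeded high-fat replicate 2.

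Genes of fat synthesis and use had medians near that of all genes. Of 9 genes of lipogenesis and sterols 0 passed and 0 had an unadjusted p under 0.05, and the median was -0.08. The 4 genes of fatty acid oxidation (0 passed, median 0.07) and the 4 of the respiratory chain (0 passed, median 0.19) held no calls either. Scd1, which puts a double bond into fatty acids, had a difference of -0.80 ± 0.51 (adjusted p = 0.455).

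Hmox1 encodes heme oxygenase 1, which macrophages switch on when they take up heme or meet oxidants. Its values were 7.63, 7.84 and 8.02 on the low-fat and 10.11, 8.86 and 10.60 on the high-fat diet. The low-fat samples lay close together and below all others (2.02 ± 0.43, adjusted p = 0.0345, 4.07-fold). Of 9 genes of the oxidative stress response, Hmox1 was the 1 that passed, and the median was 0.02. Cybb, the catalytic chain of the phagocyte oxidase, was at 9.69 to 10.85 against 10.88 to 11.37 (0.80 ± 0.28, adjusted p = 0.167).

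Macrophage genes were higher in part. Csf1r, the receptor of the macrophage growth factor, was at 10.68, 9.77 and 10.79 against 11.60, 10.95 and 11.18, with groups apart (0.83 ± 0.28, adjusted p = 0.138). Cd68, a lysosomal protein used as a macrophage marker, was at 10.75, 10.08 and 11.04 against 11.60, 10.89 and 11.69 (0.77 ± 0.28, adjusted p = 0.168). Of 5 lysosome genes 0 passed, and the median was 0.87. At an unadjusted p under 0.05, 4 were higher, against 57 of all 594 genes. Ctsb, the gene of cathepsin B, was at 10.66 to 11.32 against 11.35 to 12.26, apart by a narrow gap (0.71 ± 0.26, adjusted p = 0.168). Apart from Cd14, none of the 4 tested macrophage markers passed, and Marco, a scavenger receptor of the list that was not tested, had 23 to 29 counts on the low-fat and 11 to 21 on the high-fat diet.

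The remaining lists showed few or no calls. Of 12 genes of MAPK, PI3K and RAS signalling 0 passed, and the median was -0.30. In 3 the groups were apart below, against 68 of all 594 genes (11.4%). Pik3cb, a catalytic subunit of PI3-kinase, was the lowest of them at 7.69 to 8.40 against 6.93 to 7.47 (-0.87 ± 0.27, adjusted p = 0.108). Of 8 growth factor genes 0 passed, with a median of 0.30, and Igf1, which macrophages and stroma secrete, had a difference of 1.5 ± 0.61 (adjusted p = 0.215). Of 4 complement genes 0 passed, with a median of 1.07 that was 0.68 without high-fat replicate 2. The 5 cell cycle genes had a median of 0.10, and Mki67, the proliferation marker, was at 6.93 to 8.41 against 8.53 to 9.04 (0.82 ± 0.61, adjusted p = 0.533).

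**Figure D3:**
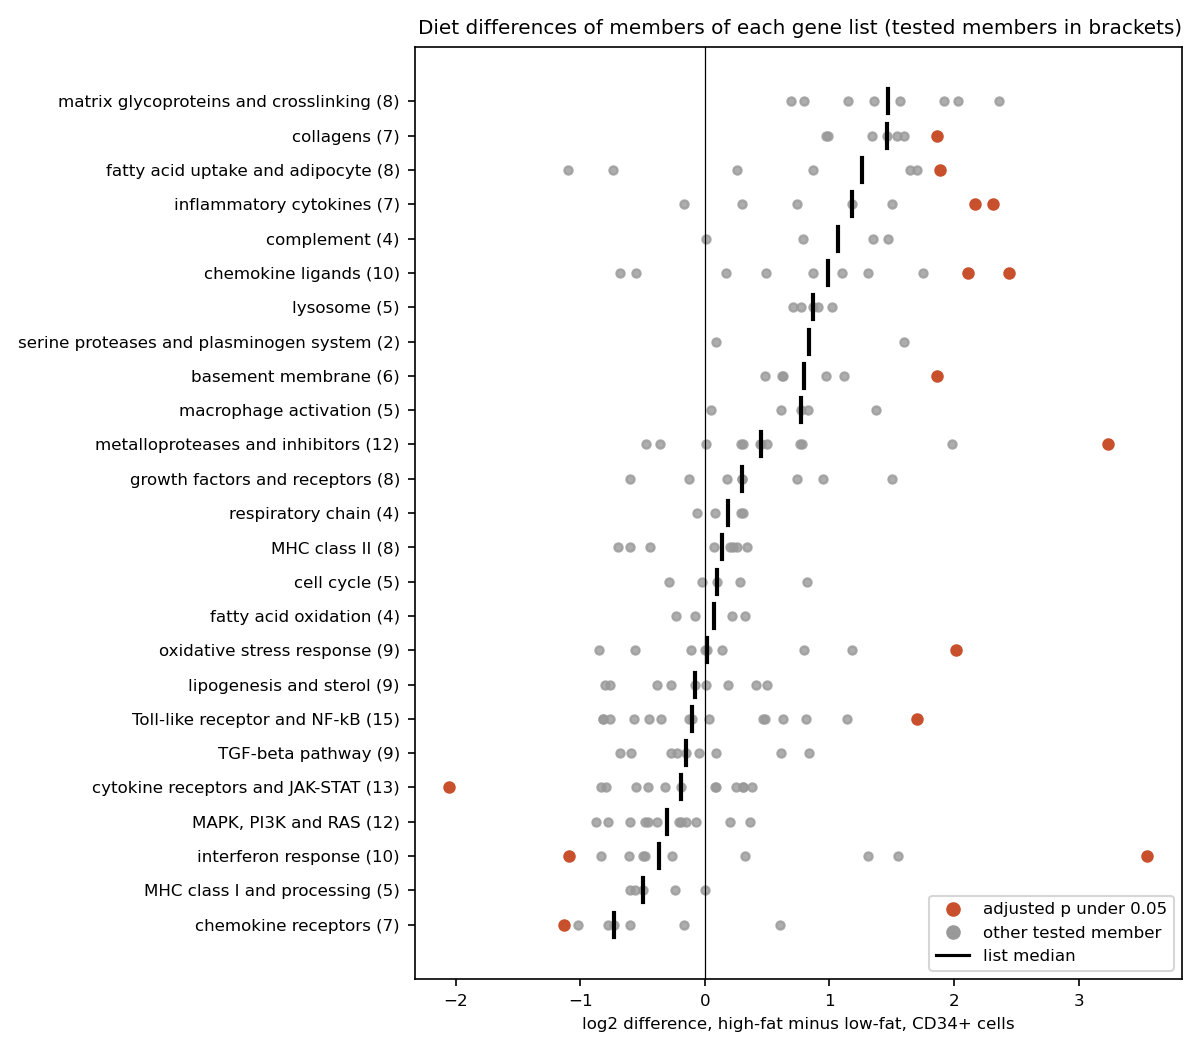
Log2 differences, high-fat minus low-fat diet, of the tested genes of each pathway list in CD34+ cells. Cell type lists are not drawn. Each point is 1 gene, red where the adjusted p was under 0.05, and the black bar is the median of the list. Medians run from -0.73 for chemokine receptors to 1.47 for matrix glycoproteins and crosslinking.

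The diet differences of the CD34+ cells were set beside those of the CD34- cells. These come from other samples, but not from independent ones. Samples of the same diet and number correlated across the populations (0.306 to 0.434), and both comparisons share the estimate of the spread. Genes called in both populations are therefore not an independent repeat. In CD34- cells 30 genes passed (5.05%), all higher on the high-fat diet, and the median difference was 0.35. The count was 4 to 6 without low-fat replicate 2, high-fat replicate 1 or high-fat replicate 3 of the CD34- cells, and 4 of the 10 genes that rose in CD34+ cells were then among them. It was 12 without low-fat replicate 1 of the CD34- cells (7 of the 10), 17 with re-centred samples, with a median of 0.03 (6 of the 10), and 13, of which 1 was lower, with quantile normalization (6 of the 10). In the main model, of the 10 genes that rose in CD34+ cells, 9 also passed there, and Oasl1 did not (3.04, adjusted p = 0.054). Il6 differed by 2.21, Il10 by 2.18, Cxcl2 by 2.64, Cxcl1 by 2.97, Cd14 by 1.71, Hmox1 by 2.66, Fabp4 by 2.75, Timp1 by 3.00 and Col4a2 by 2.99 in CD34- cells. The rises in CD34- cells were thus of like size for Il6, Il10 and Cd14 and larger in value for Col4a2, Cxcl1 and Fabp4, without passing the test of the difference.

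Of the 4 genes that fell in CD34+ cells, 0 passed in CD34- cells. There Il21r differed by 0.15, Ccr7 by -0.39 and Irf1 by 0.14. Ccr7 was apart and lower there too, at 10.63 to 10.69 on the low-fat and 10.26 to 10.27 on the high-fat diet. In CD34- cells 4 of 594 genes were apart below. The difference between the diet effects was itself tested. In the model without a block 0 genes passed (0.0%, limma) and 52 had an unadjusted p under 0.05 (8.75%), all with the lower diet effect in CD34+ cells. With diet and number as a random block (the mouse, if a number stands for 1 mouse) 7 genes passed (1.18%). All had the lower diet effect in CD34+ cells.

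Of the genes that fell, Il21r (-2.19 ± 0.39, adjusted p = 0.0145) and Irf1 (-1.23 ± 0.27, adjusted p = 0.0468) were among these 7, and Ccr7 was not. Also among them were Nrp2 (-1.41 ± 0.25, adjusted p = 0.0145), a co-receptor of semaphorins and VEGF, Ikbkb (-1.35 ± 0.29, adjusted p = 0.0431), Ptger4 (-1.30 ± 0.28, adjusted p = 0.0431), a receptor of prostaglandin E2, and Sirt1 (-1.34 ± 0.31, adjusted p = 0.0472), a deacetylase. The median of this difference over all genes was -0.36, so part of each value was shared by the whole table. When every sample was re-centred on its median, with the block kept, 0 genes passed, 60 had an unadjusted p under 0.05 (43 with the lower and 17 with the higher diet effect in CD34+ cells), and Il21r came nearest (-1.86, adjusted p = 0.0791).

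**Figure D4:**
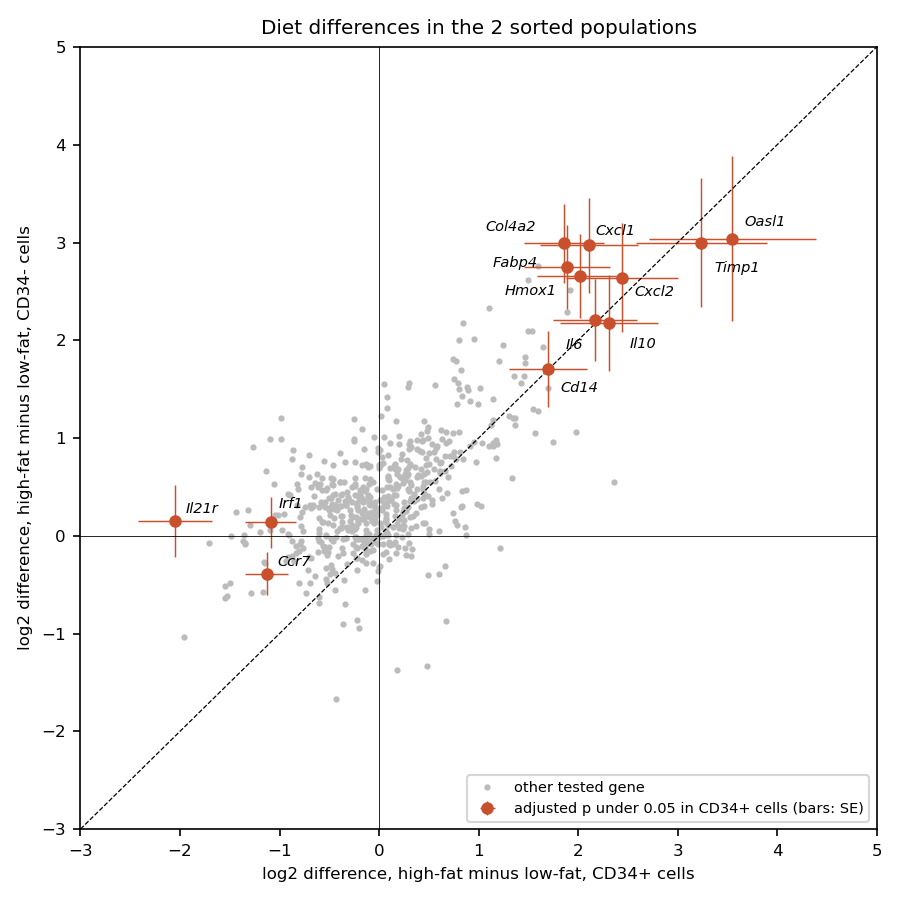
Log2 differences, high-fat minus low-fat diet, of tested genes in CD34+ cells (horizontal) and CD34- cells (vertical). Grey points are single genes and red points, with SE bars, are 13 of the genes that passed in CD34+ cells. The dashed line marks equal differences. The 10 genes that rose lie high on both axes, and the 3 plotted that fell lie between -0.39 and 0.15 on the vertical axis.

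**Figure D5:**
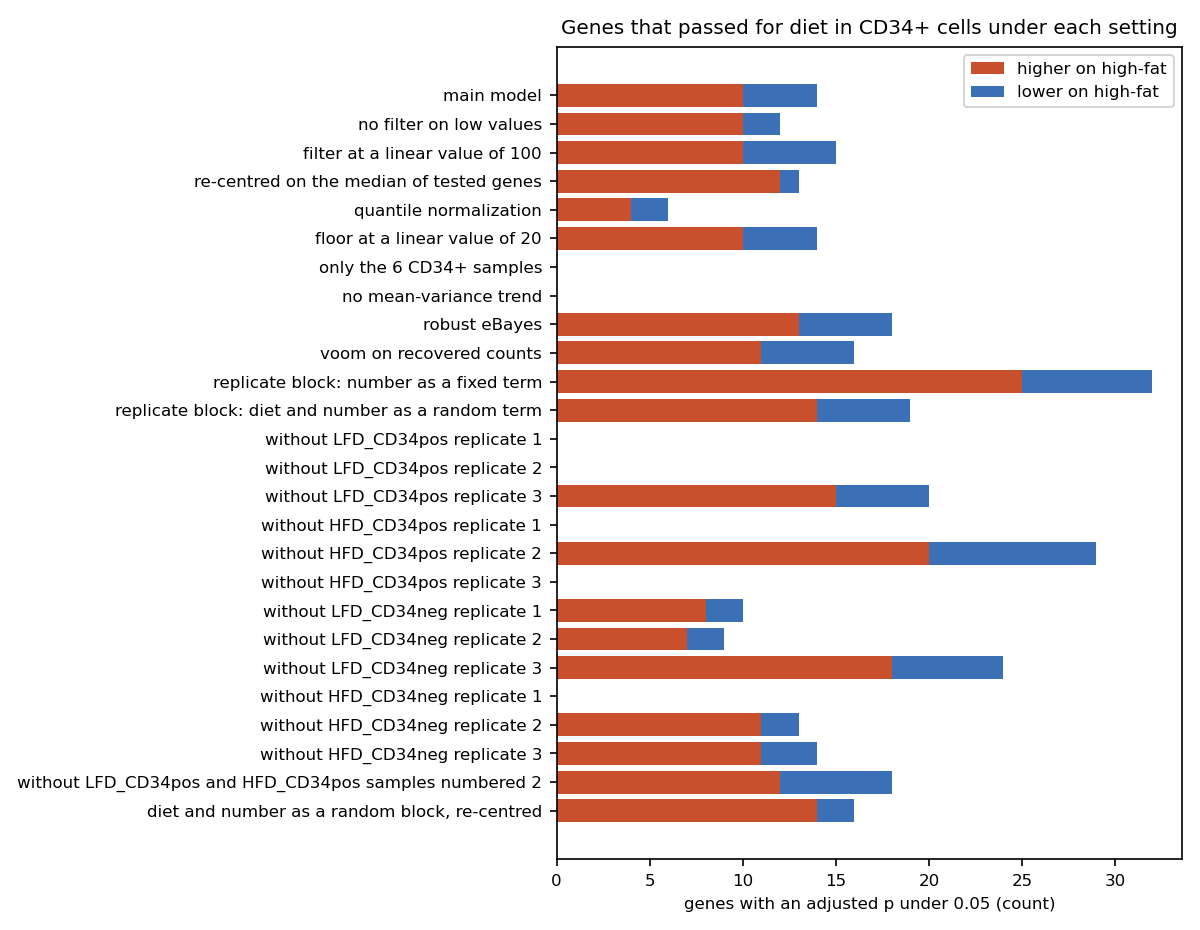
Number of genes that passed for diet in CD34+ cells in the main model and under each alternative, higher (red) and lower (blue) on the high-fat diet. Bars start at 0. The count runs from 0 to 32, against 14 in the main model, and settings with no bar had 0 calls.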

How the data were processed

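RNA of sorted cells was counted on a NanoString panel, and the authors deposited normalized log2 values of 760 genes, with no count table used here. Each column was log2 of a whole number plus a constant: values under 300 counts were whole within 0.02, and 98.0% to 99.7% of a sample's values within 0.1. The basis of that constant was not given in the sources used here. The authors' deposited table for this comparison holds gene-centred log2 values and, in a column of unit other, the number of a cluster. Symbols matched RefSeq for 748 genes, by synonym for 9, and 3 did not match.

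A gene was kept when 3 or more samples reached a linear value of 20. Counting error matters for low values and leaves out amplification. A linear model of the 4 group means was fitted to the 12 samples, by limma 3.58.1 in R 4.3.3 with statmod 1.5.0, with a mean-variance trend. Tests were two-sided, adjusted over 594 genes. An exact permutation test of 3 against 3 cannot go below 0.1, so none was used. On simulated data (594 genes, 200 changed, 20 runs, independent genes and samples) the fit recovered 50.4% of log2 changes of 1 and 88.9% of changes of 2. Of the calls, 3.77% were false. In the real data 81 genes differed by at least 1 and 14 passed. Samples of the same diet and number correlated across populations, at a consensus of 0.448 in the fit with the random block. The simulation thus changed a larger share of genes and left out this correlation, so its rates do not give the power of this comparison.

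Deviations from group means correlated at 0.306 to 0.434 between the populations when diet and number were the same, so diet and number paired these samples; the labels do not say that a number is a mouse. Across diets in CD34+ cells they were -0.062, -0.136 and -0.158, so numbers did not pair the diets. No replicates were copies of one library. The genes named were all that passed, the next 10 in each direction by p, up to 4 per list by p, the genes of the authors' deposited table, the 3 smallest p of the difference between populations, Cd34 and Ptprc. Some that the rule takes are counted only, with their lists or among the calls, and are not reported here by name. Myd88, Isg15, Bst2, Tnf, Cxcl16, Col1a1, Ccl2, Ptger4, Lep, Marco and Gzmb were chosen after their values were seen. The samples, lists and genes were chosen with earlier results of these data known. Alternatives covered filters, scaling, a floor, samples, trend, robust fit, voom, blocks and left-out samples.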

Additional observations from a re-analysis of the deposited data

Results flagged for a closer look

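In 7 genes the diet effect differed between CD34+ and CD34- cells, by a test of that difference with diet and number as a random block. Each had the lower diet effect in CD34+ cells. Among them the log2 difference was -2.19 for Il21r, -1.41 for Nrp2, -1.35 for Ikbkb, -1.34 for Sirt1, -1.30 for Ptger4 and -1.23 for Irf1 (limma adjusted p 0.0145 to 0.0472). In the model without the block 0 genes passed, with 52 at an unadjusted p under 0.05, and these 7 had adjusted p of 0.267 to 0.374. With the block and re-centred samples 0 passed, with 60 at an unadjusted p under 0.05, and the difference of Il21r was -1.86.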

How the results depend on the processing

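For diet in CD34+ cells 14 genes passed. The count was 6 with quantile normalization, 0 in the fit of the 6 CD34+ samples (92 genes at an unadjusted p under 0.05), 0 without the mean-variance trend (110), and 0 to 29 when 1 sample was left out, CD34- samples included. With the replicate number as a block across diets it was 32, although numbers did not pair the diets, and with diet and number as a random block it was 19, all 14 among them in both. With no filter, a filter at 100, re-centring, a floor, a robust fit or voom it was 12 to 18. For diet in CD34- cells it was 4 to 55, against 30. The 7 genes whose diet effect differed between the populations passed in the fit with the random block alone and in no other setting run. Of 245 values under alternatives of the 13 named genes that passed, 0 turned sign and 104 no longer passed. The other 56 named genes turned sign in 14 of 1056 values. With 1 CD34+ sample left out, the difference ran from -0.33 to 0.34 for Cd34, lowest without high-fat replicate 2, and from -0.09 to 0.10 for Ptprc. It ran from -0.05, without high-fat replicate 2, to 2.23 for Col1a1, from -2.28 to 1.34 for Cpa3 and from -2.56 to 1.11 for Tpsb2, the last 2 being highest without low-fat replicate 3. Without both samples numbered 2 it was -0.61 for Cd34, -0.36 for Col1a1, -0.20 for Gzmb and -0.13 for Ptprc, and Ptprc was at -0.35 with quantile normalization. Alternatives added after seeing the data were those without both samples numbered 2, without single CD34- samples, and with block and re-centring combined. The cause of these changes was not tested.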
